A study of Mus musculus with 10 samples.

Results

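The 10 transcription factors described here hold mouse embryonic stem (ES) cells in a self-renewing state: Nanog, Tbx3, Tcfcp2l1, Esrrb, Klf2, Klf4, Klf5, Sall4, Pou5f1 and Sox2. They were taken by gene name from a deposited expression table of 26857 entries, in which they fill 11 entries because Sox2 has 2. Their levels were set beside the RBFOX2 binding clusters in their loci. Of the 11 entries, 10 passed a mean of at least 1 FPKM (fragments mapped per kilobase of transcript, scaled to the library's total), as did 12632 entries of the whole table. The entry that missed it was the second Sox2 entry, with 1.32 FPKM in shFox2-1, 0.433 in shFox2-2, 0.631 in shGFP and 0.512 in shLuc.

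RNA was sequenced from V6.5 mouse ES cells, an established line kept on gelatin in serum medium with LIF (ESGRO). The cells carried a lentiviral short hairpin against Rbfox2 (shFox2-1 or shFox2-2) or a control hairpin against GFP (shGFP) or luciferase (shLuc), with 2 biological replicate libraries per hairpin. Every hairpin population was selected for 3 days in puromycin at 1 µg/ml and then grown for 24 h without it before poly(A) RNA was collected. Binding was mapped by iCLIP, which recovers RNA fragments that UV light has joined to a protein, in V6.5 cells that expressed human RBFOX2 with a FLAG-HA tag (FHFOX2) or without one (UntagFOX2). Both forms were expressed from a lentiviral vector selected in hygromycin at 150 µg/ml for 6 days and were induced with doxycycline at 1 µg/ml for 24 h. The cells were irradiated at 150 mJ/cm2. The clusters therefore come from a human protein made in mouse cells, with 1 library per side.

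OCT4 (the product of Pou5f1) and SOX2 bind DNA as a pair and are the core of the pluripotency network, shared by naive and primed cells. Around them sits a group of factors typical of the naive state. KLF4 acts downstream of LIF and STAT3, TFCP2L1 (the product of Tcfcp2l1) is a STAT3 target, and ESRRB is held in check by the WNT pathway repressor TCF7L1. NANOG and TBX3 can sustain self-renewal when LIF is withdrawn, KLF2, KLF4 and KLF5 share functions, and SALL4 is a zinc finger partner of OCT4 and NANOG. RBFOX2 is an RNA-binding protein known as a splicing regulator.

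Promoter letters are given for 3 of the factors whose shFox2-1 values stood farthest above the controls, since these factors are known to act on each other's genes. Each run is the 250 bases before the gene's start in RefSeq on GRCm38.p6, a build different from the mm9 of the data files, written 5′ to 3′ on the gene's strand. In the Nanog run (chr6:122707239-122707488, + strand) capitals mark the octamer TTTGCAT and the SOX letters ACAATG. In the Klf4 run (chr4:55532476-55532725, - strand) and the Tfcp2l1 run (chr1:118627695-118627944, + strand) they mark matches to the KLF letters GGGNGNGG on either strand. Overlapping matches join into 1 capital stretch, and KLF matches in the Nanog run are left in lower case.
Nanog: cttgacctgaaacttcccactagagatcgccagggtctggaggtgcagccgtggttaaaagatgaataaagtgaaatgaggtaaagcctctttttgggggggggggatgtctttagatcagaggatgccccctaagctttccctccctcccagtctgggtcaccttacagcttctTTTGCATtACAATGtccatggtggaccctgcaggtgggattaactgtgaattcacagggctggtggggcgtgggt
Klf4: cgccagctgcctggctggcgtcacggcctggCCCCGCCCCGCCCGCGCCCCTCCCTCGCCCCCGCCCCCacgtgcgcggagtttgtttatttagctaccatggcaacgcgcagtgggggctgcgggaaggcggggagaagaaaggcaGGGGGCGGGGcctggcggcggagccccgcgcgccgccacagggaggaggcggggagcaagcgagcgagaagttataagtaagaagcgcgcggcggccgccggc
Tfcp2l1: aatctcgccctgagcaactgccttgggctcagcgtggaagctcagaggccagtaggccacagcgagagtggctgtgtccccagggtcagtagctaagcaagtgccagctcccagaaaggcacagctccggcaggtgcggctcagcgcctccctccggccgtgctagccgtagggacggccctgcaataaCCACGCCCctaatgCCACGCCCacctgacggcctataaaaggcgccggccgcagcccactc
The table of promoters held 7 of the 10 factors, not Tbx3, Klf5 or Sall4. Both strands of the 250 bases before each listed start were searched. The KLF letters were found for 7 of these 7 factors, and for 45.6% of 27025 genes with a promoter entry. The octamer was found for Nanog and Sox2, against 4.06% of genes, and the SOX letters for Nanog and Pou5f1, against 11.0%. The shares of genes rest on a single start per gene, whereas a factor was counted with a match at any listed start. For Pou5f1 the SOX letters were absent at its first listed start and present only at a later one. The joined letters TTTGCATNACAATG occurred for Nanog, the only gene with them when 1 start per gene was searched. The ESRRB letters TCAAGGTCA were found for none of the 7, against 0.366% of genes, and the STAT letters TTCNNNGAA for Esrrb, against 7.18%. The joined letters contain the octamer and the SOX letters, and a match describes the sequence only.

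The targeted gene checked the labels. Rbfox2, listed in the table under its older name Rbm9, had 8.56 FPKM (interval 7.14 to 9.98) in shFox2-1 and 7.21 (5.59 to 8.82) in shFox2-2, against 23.3 (20.6 to 26.0) in shGFP and 24.7 (21.9 to 27.4) in shLuc. Both knockdown hairpins lay below both controls, and their own intervals overlapped. The values in shFox2-2 and shLuc have a low-data status from the authors. Each FPKM value pools the 2 libraries of a hairpin and comes with an interval deposited by the authors, whose confidence level is not given in the file. No replicate spread can be taken from it, and the sequencing depth behind it is unknown. Over the 40 values of the 10 factors, the interval reached from 6.84% to 19.5% of the FPKM to either side. Hairpins also differed in scale: the median gene stood at 0.09 in shFox2-1, -0.10 in shFox2-2, 0.05 in shGFP and -0.03 in shLuc, in log2 units around the mean of the hairpins. Ratios and counts are therefore also given after each hairpin was centred on its median gene.

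In control cells the 10 factors spanned a wide range of FPKM, which is scaled to transcript length and so allows levels of different genes to be compared. Pou5f1 was the highest, with a control mean of 310.7 FPKM. Sox2 at 92.0, Nanog at 79.7 and Sall4 at 71.7 FPKM followed, then Klf2 at 57.8, Esrrb at 32.5 and Klf5 at 26.4. Klf4 at 15.0, Tcfcp2l1 at 12.7 and Tbx3 at 5.17 FPKM were the lowest. Neighbours in this order were not always apart. Klf4 and Tcfcp2l1 had overlapping intervals in all 4 hairpins. Sox2 and Nanog overlapped in 3 hairpins (all but shFox2-1), as did Nanog and Sall4. Esrrb and Klf5 overlapped in 2, shFox2-2 and shGFP, and Klf5 and Klf4 in 1, shFox2-1.

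**Figure D1:**
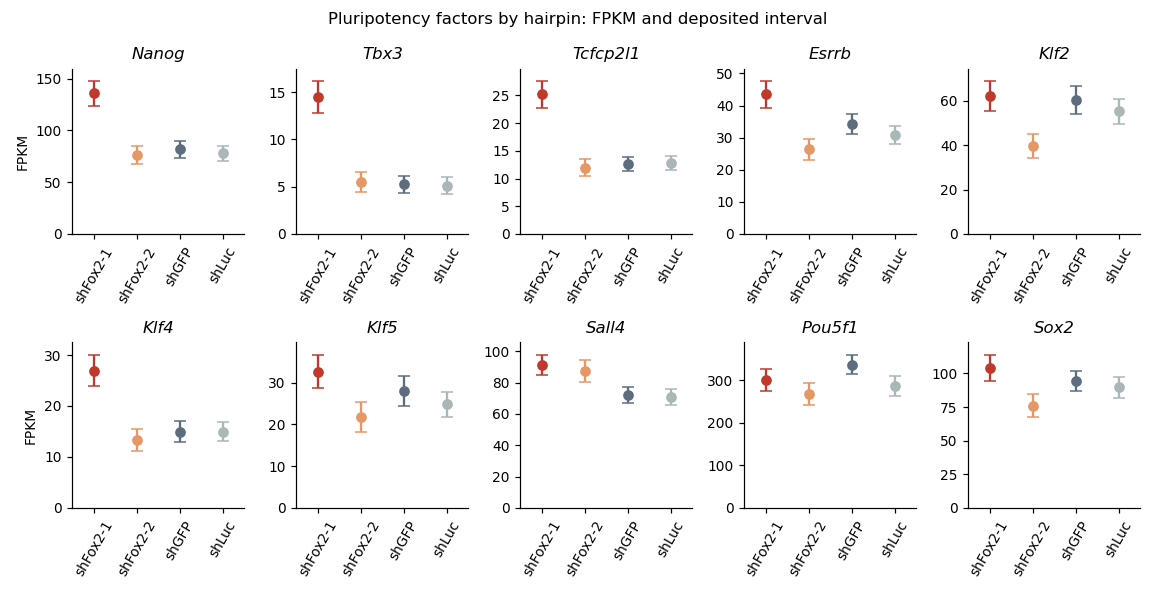
FPKM (vertical axis, starting at 0, with its own scale for each gene) of the 10 factors in shFox2-1, shFox2-2, shGFP and shLuc. Points are the authors' pooled values and bars their deposited intervals; Sox2 is the entry with the higher level. In shFox2-1, 6 factors lie above both controls, and Sall4 does so in shFox2-2 as well.

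Tbx3 and Nanog each lay above both controls with shFox2-1 and overlapped both with shFox2-2. Tbx3, a T-box factor, had 14.5 FPKM (12.8 to 16.2) in shFox2-1 and 5.51 (4.43 to 6.58) in shFox2-2, against 5.24 (4.37 to 6.12) in shGFP and 5.10 (4.18 to 6.02) in shLuc. The shFox2-1 value was 2.80 times the control mean, or 2.65 times after centring, and 99.8% of expressed genes had a lower ratio. With shFox2-2 the ratio was 1.07 and the interval overlapped both controls. Nanog, a homeobox factor, had 135.8 FPKM (123.8 to 147.8) in shFox2-1 and 76.0 (67.5 to 84.6) in shFox2-2, against 81.5 (73.6 to 89.4) in shGFP and 77.9 (70.7 to 85.1) in shLuc. The shFox2-1 ratio was 1.70, or 1.61 centred, and shFox2-2 overlapped both controls. The Nanog entry is joined in the table with LOC100038891, and Nanog and Pou5f1 have pseudogene copies in the mouse genome, so reads of these genes may be shared.

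Tcfcp2l1, the STAT3 target, had 25.2 FPKM (22.7 to 27.6) in shFox2-1 and 12.0 (10.4 to 13.5) in shFox2-2, against 12.6 (11.3 to 13.9) in shGFP and 12.8 (11.6 to 14.1) in shLuc. The shFox2-1 value was 1.98 times the control mean (1.87 centred) and that of shFox2-2 was 0.940 times. Esrrb, an orphan nuclear receptor, had 43.4 FPKM (39.2 to 47.7) in shFox2-1 and 26.3 (23.1 to 29.5) in shFox2-2, against 34.2 (31.1 to 37.3) in shGFP and 30.8 (28.0 to 33.6) in shLuc. Its shFox2-1 interval lay above both controls, by the narrower margin of a ratio of 1.34 (1.27 centred). Its shFox2-2 value, at 0.809 times the control mean, lay below both control values, and its interval cleared that of shGFP but overlapped that of shLuc.

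The 3 Krüppel-like factors, zinc finger proteins that bind GC-rich sites, differed in their pattern. Klf4 had 26.9 FPKM (23.8 to 30.1) in shFox2-1 and 13.2 (11.1 to 15.4) in shFox2-2, against 15.0 (12.9 to 17.0) in shGFP and 15.0 (13.2 to 16.8) in shLuc. With shFox2-1 it stood at 1.80 times the control mean (1.70 centred), above both controls. Klf2 had 62.2 FPKM (55.5 to 69.0) in shFox2-1 and 39.6 (34.0 to 45.2) in shFox2-2, against 60.4 (54.1 to 66.6) in shGFP and 55.3 (49.7 to 60.9) in shLuc. It was the one factor below both control intervals in a knockdown hairpin, at 0.685 times the control mean in shFox2-2 (0.737 centred). Klf5 had 32.7 FPKM (28.6 to 36.7) in shFox2-1 and 21.8 (18.3 to 25.3) in shFox2-2, against 28.0 (24.4 to 31.6) in shGFP and 24.8 (21.8 to 27.8) in shLuc. Both of its knockdown intervals overlapped a control interval.

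Sall4 was the one factor on the same side of both control intervals with both knockdown hairpins. It had 91.4 FPKM (84.8 to 97.9) in shFox2-1 and 87.7 (80.7 to 94.8) in shFox2-2, against 72.3 (67.2 to 77.5) in shGFP and 71.0 (66.0 to 76.0) in shLuc. The ratios to the control mean were 1.28 for shFox2-1 and 1.22 for shFox2-2 (1.21 and 1.32 centred). The shGFP value of Sall4 carries a low-data status from the authors, and so does that of Tbx3. With entries limited to an OK status in every hairpin, Sall4 and Tbx3 were left out.

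The core pair showed no knockdown interval outside both controls. Pou5f1 had 299.7 FPKM (273.1 to 326.4) in shFox2-1 and 267.6 (242.5 to 292.7) in shFox2-2, against 336.4 (313.4 to 359.4) in shGFP and 285.0 (261.4 to 308.6) in shLuc. It was the one factor whose 2 control intervals did not overlap, with shGFP above shLuc, which was so for 0.997% of expressed genes; shGFP lay below shLuc for 0 factors, against 0.19%. After centring the control intervals overlapped for all 10 factors, against shares of 0.174% above and 0.522% below among all genes. Sox2 had 104.1 FPKM (94.4 to 113.9) in shFox2-1 and 76.0 (67.6 to 84.3) in shFox2-2, against 94.2 (86.6 to 101.9) in shGFP and 89.8 (82.1 to 97.6) in shLuc. The Sox2 intervals of shFox2-1, shGFP and shLuc overlapped one another, and the shFox2-2 interval overlapped that of shLuc. The RNA came from whole cultures, where a larger share of cells with a factor and more of its RNA per cell cannot be told apart.

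By hairpin, 6 of the 10 factors (Nanog, Tbx3, Tcfcp2l1, Esrrb, Klf4 and Sall4) had a shFox2-1 interval above both control intervals, against 5.44% of expressed genes, and 0 had one below, against 2.11%. The same 6 were above after centring, against 3.32% of genes, and 0 were below, against 3.13%. With shFox2-2, 1 factor (Sall4) was above, against 0.348% of genes (1.74% centred), and 1 (Klf2) was below, against 1.98% (0.926% centred). Both hairpins were above both controls for 1 factor, Sall4, against 0.174% of genes (0.245% centred), and both were below for 0, against 0.119% (0.0633% centred). By value alone, both hairpins stood above both controls for 2 factors, Tbx3 and Sall4, against 14.3% of genes, and below for 0, against 17.8%. After centring they stood above for 3, Nanog being added, against 17.7%, and below for 1, Pou5f1, against 18.3%. These counts depend on the control used. Against shGFP alone, without shLuc, Esrrb, Klf2, Pou5f1 and Sox2 had a shFox2-2 interval below the control, 4 in all, against 5.64% of genes. Against shLuc alone, without shGFP, 7 factors were above with shFox2-1, Klf5 being added, against 10.6% of genes. The 2 knockdown comparisons share their control hairpins.

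The 2 hairpins against Rbfox2 were also set against each other. The shFox2-1 interval lay above that of shFox2-2 for 8 of the 10 factors, all but Sall4 and Pou5f1, against 13% of expressed genes, and below it for 0, against 1.97%. After centring it lay above for 6 (Nanog, Tbx3, Tcfcp2l1, Esrrb, Klf2 and Klf4), against 5.57% of genes, and below for 0, against 5.5%. For 7 factors, all but Tbx3, Sall4 and Pou5f1, the shFox2-1 value lay above both control values and the shFox2-2 value below both, against 25.6% of genes. After centring this was so for 5, against 14.3%, and the shFox2-2 values of Nanog and Tcfcp2l1 were then 1.03 and 1.01 times the control mean. The reverse order held for 0 factors, against 5.17% of genes (13.2% centred). The 12632 expressed genes were also ranked by the difference of shFox2-1 from shFox2-2 in log2(FPKM + 1), hairpins centred. Tbx3 was number 33, Tcfcp2l1 number 98, Klf4 number 124 and Nanog number 290. At the other end Pou5f1 ranked 6547 and Sall4 8281. The remaining Rbfox2 transcript itself had overlapping intervals with the 2 hairpins, 8.56 FPKM in shFox2-1 and 7.21 in shFox2-2.

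**Figure D2:**
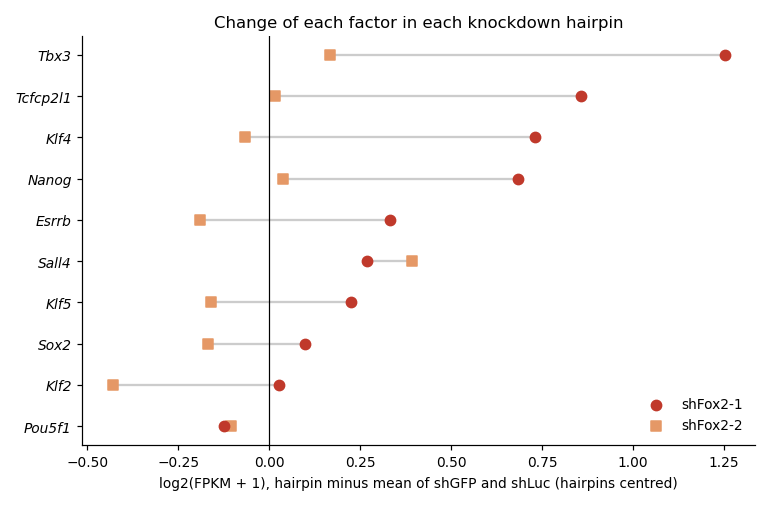
Difference in log2(FPKM + 1) (horizontal axis, hairpins centred) of shFox2-1 (circles) and shFox2-2 (squares) from the mean of shGFP and shLuc, for each factor; lines join the 2 hairpins and 0 is the control mean. Tbx3, Tcfcp2l1, Klf4 and Nanog have the highest shFox2-1 values and shFox2-2 values closer to 0. Sall4 is the one factor with a higher shFox2-2 than shFox2-1 value among those positive with both hairpins (with Tbx3, Nanog and Tcfcp2l1), and Pou5f1 is the one negative with both.

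The question of whether Rbfox2 knockdown moved the factors was tested with both knockdown hairpins against both controls. With limma on log2(FPKM + 1) over 20281 genes and Benjamini-Hochberg adjustment, 0 genes passed an adjusted p of 0.05 (0%), and 908 had an unadjusted p under 0.05. Among the 12632 expressed genes alone, 1 gene passed, Rbfox2 (0.00792%). None of the factors passed, with adjusted p between 0.978 and 0.998. The log2 differences ran from -0.21 (SE 0.22) for Klf2 to 0.70 (SE 0.40) for Tbx3. The standard error of Tbx3 was the largest, and its 2 knockdown values were 14.5 and 5.51 FPKM. Sall4 differed by 0.32 (SE 0.10), with an unadjusted limma p of 0.0196 and an adjusted p of 0.978. For a single gene, 2 hairpins against 2 allow an exact permutation p no lower than 0.333.

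Without shFox2-1, the log2 difference was -0.07 for Nanog, -0.08 for Tcfcp2l1, -0.16 for Klf4 and -0.29 for Esrrb, all of which were positive with the 4 hairpins. For Tbx3 it was 0.08 without shFox2-1, against 0.70 with it. Without shFox2-2, Klf2 was at 0.11, against -0.21 with it. Sall4 stayed between 0.29 and 0.35 whichever hairpin was left out.

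The lists of related genes set beside the factors were drawn from general knowledge with earlier results of these data known. The other pluripotency network genes (29, all expressed) had 9 above both controls and 0 below with shFox2-1, against 5.44% and 2.11% of expressed genes, and 0 above and 6 below with shFox2-2, against 0.348% and 1.98%. After centring these were 7 above and 0 below with shFox2-1, against 3.32% and 3.13% of genes, and 3 above and 4 below with shFox2-2, against 1.74% and 0.926%. As deposited, the median log2 difference of the 10 factors from the controls was 0.38 with shFox2-1 and -0.19 with shFox2-2. It was 0.26 and -0.20 for these 29 genes, and 0.07 and -0.09 for all expressed genes. Zfp42, also called Rex1, a marker of naive ES cells, had 188.8 FPKM in shFox2-1 and 113.9 in shFox2-2, against 116.4 in shGFP and 109.6 in shLuc. Dppa5, Tdgf1 and Utf1, also taken as markers of ES cells, each overlapped a control interval with both knockdown hairpins. With shFox2-1 Dppa5 stood at 1.14 times the control mean, Tdgf1 at 1.15 and Utf1 at 0.921. With shFox2-2 they stood at 0.957, 1.18 and 0.729 times. After centring Tdgf1, which has a low-data status in every hairpin, was above both controls with shFox2-2. The entry E130014J05Rik, an older name of the 5-methylcytosine dioxygenase gene Tet2, had 11.5 FPKM in shFox2-1, above both controls, and 3.45 in shFox2-2, below both, against 5.21 in shGFP and 5.05 in shLuc. The others of this list below both controls with shFox2-2 were Zfp281, Cxxc6, L1td1, Rest and Smarcad1. With shFox2-2, Rest and Smarcad1 overlapped the controls after centring. With shFox2-1, Cxxc6 and Smarcad1 were above both controls, also after centring, and Zfp281, L1td1 and Rest overlapped them. Jarid2, a Polycomb cofactor, had 133.0 FPKM in shFox2-1 and 100.5 in shFox2-2, against 92.3 in shGFP and 86.2 in shLuc. Mybl2, a cell cycle transcription factor, had 142.0 FPKM in shFox2-1 and 114.6 in shFox2-2, against 105.7 in shGFP and 98.8 in shLuc. After centring, Jarid2 and Mybl2 were above both controls with both knockdown hairpins, 2 of the 29 genes, against 0.245% of expressed genes. As deposited, 0 of the 29 were, against 0.174%.

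The counts of the signalling lists stand against the same shares of expressed genes. With shFox2-1 these are 5.44% above and 2.11% below (3.32% and 3.13% centred). With shFox2-2 they are 0.348% above and 1.98% below (1.74% and 0.926% centred). The LIF and STAT3 list had 3 of 12 expressed genes above both controls with shFox2-1 (1 after centring) and 0 outside them with shFox2-2 (1 above after centring). Jak1, the kinase that relays the LIF signal, had 15.4 FPKM in shFox2-1 and 13.4 in shFox2-2, against 11.1 in shGFP and 11.6 in shLuc, and overlapped the controls after centring. The FGF and ERK list had 5 of 17 above and 1 below with shFox2-1 (3 and 3 after centring). Its member Etv4, an ETS factor induced by FGF signalling, had 24.7 FPKM in shFox2-1 and 14.3 in shFox2-2, against 14.4 in shGFP and 12.1 in shLuc. Above both controls with shFox2-1 were also the receptor gene Fgfr2 and Spry4, a feedback inhibitor of the pathway. Fgfr2 had 7.67 FPKM in shFox2-1 and 4.94 in shFox2-2, against 5.30 in shGFP and 4.94 in shLuc. After centring Etv4 and Spry4 were still above both controls and Fgfr2 overlapped them. The one of this list below both controls as deposited was Fgf5. It had 0.777 FPKM in shFox2-1 and 1.43 in shFox2-2, against 2.25 in shGFP and 2.60 in shLuc. After centring Fgf5, Egr1 and Mapk3 were below both controls with shFox2-1. The BMP and ID list had 2 of 10 above with shFox2-1 (1 after centring), among them the ligand Bmp4 with 11.1 FPKM in shFox2-1 and 4.10 in shFox2-2, against 4.79 in shGFP and 3.39 in shLuc. The other was the receptor gene Bmpr1a, with 14.9 FPKM in shFox2-1 and 8.95 in shFox2-2, against 10.9 in shGFP and 11.3 in shLuc. Of these, Bmpr1a overlapped the controls after centring and Bmp4 did not. The WNT and TCF7L1 list had 0 of 10 above and 1 below with shFox2-1, and 0 above and 1 below with shFox2-2. After centring 2 were below with shFox2-1 and 0 were outside the controls with shFox2-2. As deposited, the one below with shFox2-1 was Lef1, a nuclear partner of beta-catenin, with 3.52 FPKM in shFox2-1 and 5.93 in shFox2-2, against 6.87 in shGFP and 5.95 in shLuc, the values of both knockdown hairpins having a low-data status. The one below with shFox2-2 was Apc, a scaffold of the beta-catenin destruction complex that the table joins with LOC666313, with 20.3 FPKM in shFox2-1 and 13.7 in shFox2-2, against 16.8 in shGFP and 19.1 in shLuc. Apc has a low-data status in every hairpin and overlapped the controls after centring.

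Of the chromatin partners of NANOG, OCT4 and SALL4, 1 of 16 was above and 0 below with shFox2-1, a share near the 5.44% of all expressed genes, and 0 above and 1 below with shFox2-2, against 0.348% and 1.98%. After centring these were 0 and 0 with shFox2-1, against 3.32% and 3.13% of expressed genes. With shFox2-2, 2 were above and 1 below after centring, against 1.74% and 0.926%. The one above as deposited was Ep300, an acetyltransferase, with 32.5 FPKM in shFox2-1 and 27.7 in shFox2-2, against 27.1 in shGFP and 27.0 in shLuc. The one below was the remodeller Chd1, with 18.1 FPKM in shFox2-1 and 12.7 in shFox2-2, against 17.9 in shGFP and 17.8 in shLuc. Of the family relatives of the factors (KLF, SALL, SOX, POU, T-box, ESRR and grainyhead-like genes), 0 of 20 expressed genes were above both controls with shFox2-1, against 5.44% of all expressed genes. Among them 2 were below, Sall2 and Pou3f1, against 2.11%. With shFox2-2, 0 were outside the controls, against 0.348% of expressed genes above and 1.98% below.

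**Figure D3:**
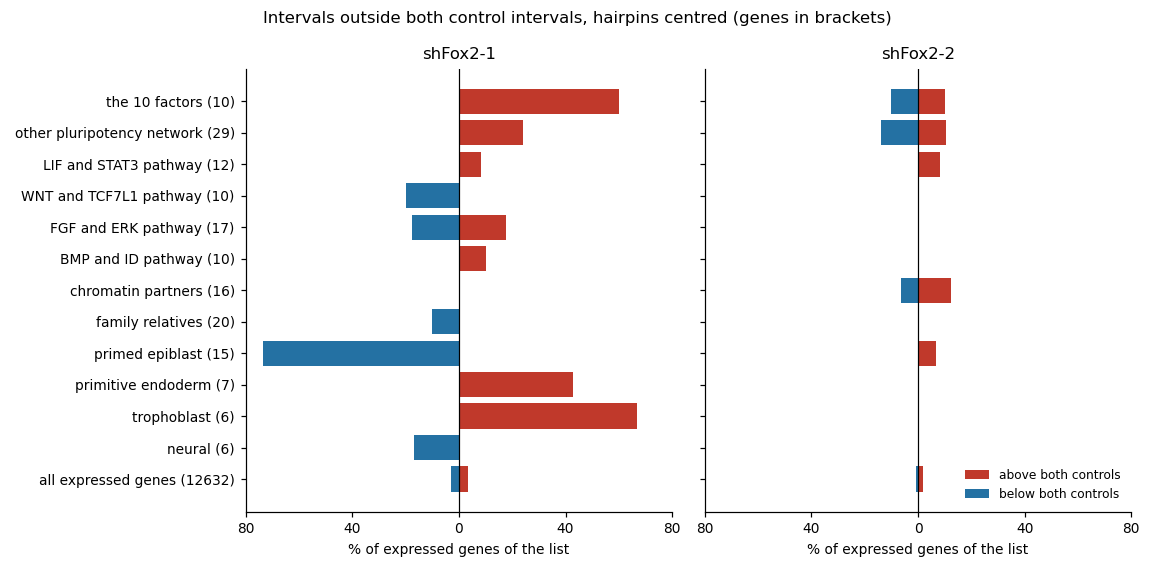
Share of each list's expressed genes (horizontal axis, %, number of genes in brackets) whose interval lay above (red, right) or below (blue, left) both control intervals with shFox2-1 (left panel) and shFox2-2 (right panel), hairpins centred. Lists with fewer than 6 expressed genes are not drawn. With shFox2-1 the 10 factors, the trophoblast and the primitive endoderm list reach far to the right and the primed epiblast list to the left, and with shFox2-2 no list reaches far to either side.

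Markers of other cell types or states that an ES culture may hold also stood apart from the controls in shFox2-1. Of 15 expressed primed epiblast markers, 10 had a shFox2-1 interval below both controls and 0 above (11 and 0 after centring). Among expressed genes 2.11% were below and 5.44% above (3.13% and 3.32% centred). With shFox2-2, 1 marker was below and 0 above (0 and 1 after centring), against 1.98% and 0.348% of expressed genes (0.926% and 1.74% centred). The list summed to 223.1 FPKM in shFox2-1 and 333.1 in shFox2-2, against 363.6 in shGFP and 344.6 in shLuc. Pim2, a kinase gene, had 15.5 FPKM in shFox2-1 and 40.7 in shFox2-2, against 45.2 in shGFP and 41.2 in shLuc. Pou3f1 (also called Oct6) had 5.70 FPKM in shFox2-1 and 9.58 in shFox2-2, against 13.0 in shGFP and 10.8 in shLuc. Sox4, a SOX family factor, was the one marker below both controls with both hairpins, with 5.89 FPKM in shFox2-1 and 6.94 in shFox2-2, against 10.1 in shGFP and 10.3 in shLuc, and its shFox2-2 interval overlapped the controls after centring. Zic2, a zinc finger factor, had 6.35 FPKM in shFox2-1 and 9.79 in shFox2-2, against 13.5 in shGFP and 14.9 in shLuc. Within this list T, Dkk1, Foxa2 and Cer1 were under 1 FPKM in every hairpin. The lists share genes: Lef1, Fgf5 and Pou3f1, below with shFox2-1, are also counted in the WNT, FGF and family relative lists.

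Of 6 expressed trophoblast markers, 4 were above both controls with shFox2-1, also after centring, against 5.44% of expressed genes (3.32% centred). With shFox2-2, 0 were outside the controls, against 0.348% of expressed genes above and 1.98% below (1.74% and 0.926% centred). The list summed to 88.9 FPKM in shFox2-1 and 51.1 in shFox2-2, against 53.6 in shGFP and 47.9 in shLuc. Most of that sum was the keratin genes Krt8, with 39.0 FPKM in shFox2-1 and 23.1 in shFox2-2, against 20.8 in shGFP and 19.5 in shLuc, and Krt18. Tcfap2c, an AP-2 factor gene, was above as well, with 15.1 FPKM in shFox2-1 and 8.24 in shFox2-2, against 9.69 in shGFP and 8.61 in shLuc. Cdx2, Elf5 and Tpbpa were under 1 FPKM in every hairpin. Hand1 had 1.33 FPKM in shFox2-1, its interval above that of shFox2-2 at 0.340 but overlapping a control, against 0.548 in shGFP and 0.248 in shLuc. Gata3, also under a mean of 1 FPKM, had 1.07 FPKM in shFox2-1, above both controls, and 0.497 in shFox2-2, against 0.264 in shGFP and 0.342 in shLuc, the last with a low-data status. Of 7 expressed primitive endoderm markers, 4 were above with shFox2-1 (3 after centring), against the same 5.44% (3.32% centred), namely the matrix genes Sparc, Lama1, Col4a2 and Col4a1, the last of which overlapped the controls after centring. That list summed to 123.6 FPKM in shFox2-1 and 82.5 in shFox2-2, against 100.3 in shGFP and 93.0 in shLuc, with Gata6, Sox17, Sox7, Pdgfra, Hnf4a, Foxa2 and Afp under 1 FPKM in every hairpin. Gata4 had 1.52 FPKM in shFox2-1 and 1.33 in shFox2-2, against 1.66 in shGFP and 1.64 in shLuc. Dab2 had 3.98 FPKM in shFox2-1 and 4.74 in shFox2-2, against 4.05 in shGFP and 4.28 in shLuc. Neither lay outside both controls. The part that these markers' cells or states have in the factors' values was not tested.

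Lists for other lineages gave few genes outside the controls. Of 6 expressed neural markers, 1 (Nes) was below both controls with shFox2-1, against 2.11% of expressed genes, and the list summed to 58.2 FPKM in shFox2-1 and 49.2 in shFox2-2, against 61.8 in shGFP and 56.6 in shLuc. None of the 2 expressed mesoderm markers or the 3 expressed fibroblast markers was outside both controls, and Msgn1 of the one list and Lum of the other were at 0 in every hairpin. Mesoderm markers summed to 5.69 FPKM in shFox2-1 and 5.43 in shFox2-2, against 5.36 in shGFP and 5.35 in shLuc. Fibroblast markers summed to 25.7 FPKM in shFox2-1 and 23.9 in shFox2-2, against 28.0 in shGFP and 24.2 in shLuc. Most of that sum was Vim, an intermediate filament gene also expressed outside fibroblasts, with 19.8 FPKM in shFox2-1 and 16.5 in shFox2-2, against 21.0 in shGFP and 17.4 in shLuc. The single expressed gene of the 2-cell-like list, Eif1a, was above both controls with shFox2-1, against 5.44% of expressed genes. It had 56.3 FPKM in shFox2-1 and 30.9 in shFox2-2, against 39.4 in shGFP and 36.5 in shLuc. Zfp352, Gm397, Zscan4f, Dub2 and Zscan4d of this list were under 1 FPKM in every hairpin. Gm4340, Tcstv1 and Tcstv3 had no usable entry.

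RBFOX2 clusters were found in the loci of 7 of the 10 factors, against 53.5% of expressed genes. The deposited list holds 35639 clusters already filtered for enrichment over the untagged library, with a median coverage of 374. Coverage, fold over untagged and q-value are the authors' values. For 44.9% of clusters no fold was formed, which means that the deposited value is infinite. Such clusters were counted as passing any fold threshold. The loci of the factors held 52 clusters, of which 23 had at least a 4-fold enrichment or no fold formed and 34 had at least the median coverage.

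Esrrb held 22 clusters in a locus of 160.5 kb (mm9 chr12:87702067-87862572), and 98.9% of expressed genes had fewer. By the position that the authors marked within each cluster, all 22 lay at least 109.7 kb from the 5′ end of the locus. The strongest by coverage, chr12:87811570-87812052, had a coverage of 5427 and a fold of 3.26. Another, chr12:87848130-87848281, had the highest finite fold among the factors, 19.0, at a coverage of 931. For 4 of the Esrrb clusters no fold was formed. Loci of 100 to 200 kb held a median of 5 clusters, and at their 90th percentile 17. Per 10 kb of locus Esrrb had 1.37 clusters, and 83.2% of expressed genes had a lower density.

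Tcfcp2l1 held 15 clusters in 57.2 kb (chr1:120524522-120581745), spread along the locus, 7 of them with no fold formed. Its strongest, chr1:120575894-120576593, had a coverage of 5720 and a fold of 1.5. Sall4 held 5 in 18.9 kb (chr2:168573832-168592701, - strand). Its strongest, chr2:168574202-168574952, had the highest coverage among the factors, 6145, a fold of 1.52, and a marked position within 1 kb of the locus end. Tbx3 held 4 clusters in 13.9 kb (chr5:120120678-120134610), 2 of them within 1 kb of the locus end, the strongest with a coverage of 1164 and a fold of 2.60 (chr5:120133637-120133801). Loci of 10 to 20 kb held a median of 1 cluster, and at their 90th percentile 3.

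Klf5 held 3 clusters in 14.7 kb (chr14:99697910-99712631), with coverages between 260 and 318, the strongest at chr14:99704734-99704820 with a fold of 8.83. Nanog held 1 in 7.0 kb (chr6:122657611-122664651), at chr6:122662320-122662423, with a coverage of 732 and a fold of 3.09. The Sox2 locus of the table spans 39.9 kb (chr3:34537096-34577025) and held 2 clusters, but both carry the ID of another gene, so that 0 were assigned to Sox2 itself. No cluster lay in Klf2 (chr8:74842932-74845248), Klf4 (chr4:55540137-55545338, - strand) or Pou5f1 (chr17:35642984-35647722). These loci are 2.3, 5.2 and 4.7 kb long, and 19.4% of expressed loci under 10 kb held a cluster. Exons and introns were not annotated in the sources used here for mm9, so clusters are placed only by their distance along the locus.

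**Figure D4:**
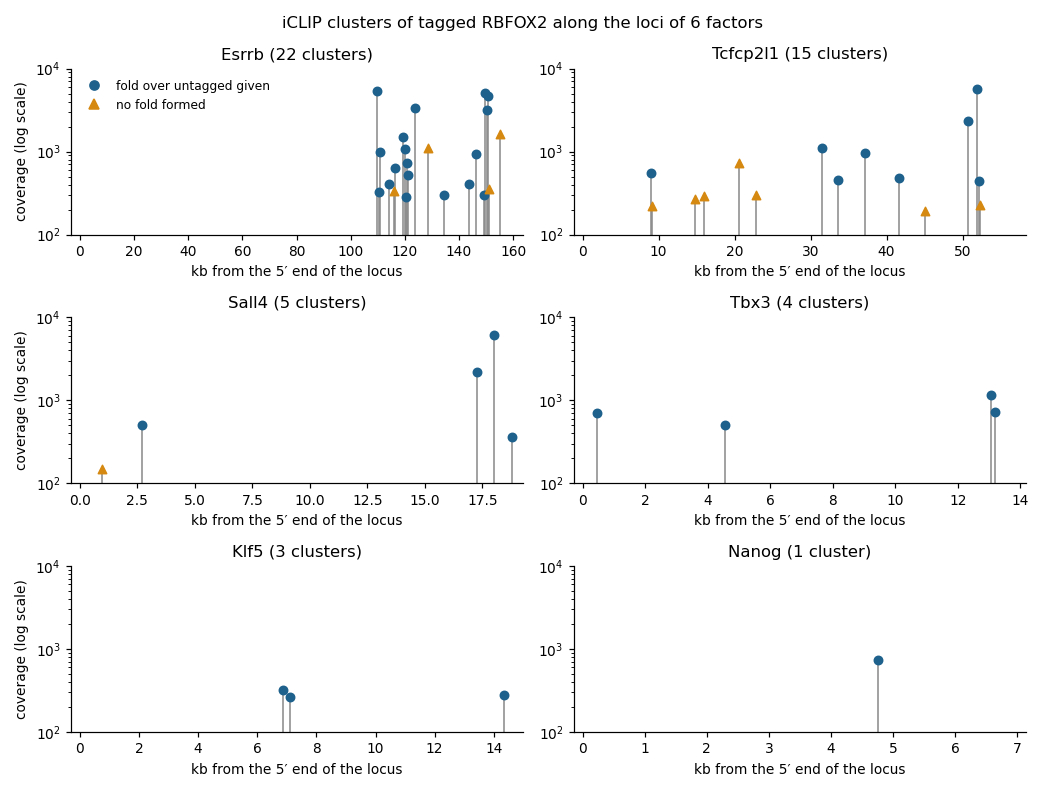
Coverage (vertical axis, log scale) of each iCLIP cluster against its distance from the 5′ end of the locus (horizontal axis, kb), for the 6 factors with clusters under their own gene ID. Circles have a fold over the untagged library and triangles have none formed. By the position marked within each cluster, the Esrrb clusters all lie beyond 109.7 kb. The clusters of highest coverage in Sall4 and Tbx3 lie near the far end.

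Of the 6 with a shFox2-1 interval above both controls, Esrrb, Tcfcp2l1, Sall4, Tbx3 and Nanog held clusters and Klf4 held none, where 53.5% of expressed genes held a cluster. Klf2, the one below both controls with shFox2-2, held none. Klf5, with 3 clusters, overlapped a control interval with both knockdown hairpins. Pou5f1, with no cluster, and Sox2, whose 2 clusters carry another gene's ID, were outside both controls with neither hairpin.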

How the data were processed

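RNA-seq was made from 8 poly(A) libraries (4 hairpins, 2 libraries each) and iCLIP from 2 libraries. The authors deposited FPKM values with interval bounds and a status flag for each hairpin, per the file headers, so the 2 libraries of a hairpin are pooled in every value. TopHat2 2.0, Cufflinks 2.1.1 and build mm9 stand in the submitters' processing notes. Nothing used here states the annotation, the level of the interval or the scaling between hairpins. The authors deposited iCLIP clusters with coverage, fold over the untagged library and q-value, per the file headers; for them no aligner or caller is given in the sources used here, but the untagged library had 7 more PCR cycles than the 16 of both, per the labels' protocols. Depth is unknown, since no counts accompany the FPKM values.

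The members and lists were chosen with earlier results of these data known. Entries that failed in some hairpin (105) or were at 0 FPKM throughout (6477), some of them both, were left out of the 26857, which left 20281. They were tested on the log2(FPKM + 1) scale, which understates the change of low genes, with limma 3.58.1 under R 4.3.3 and a trend of variance on level; p measures the spread between hairpins, not cultures. Its code was tested on simulated data. Interval comparisons used the entries whose FPKM averaged 1 or more, and carry no p. From each list up to 4 genes with a mean of at least 5 FPKM were named. Their interval lay outside both controls, in both hairpins or else in 1, and they were taken by the size of the log2 difference. The 2-cell-like, neural and matrix genes were named in the same way. Named after their values were seen were Sall2, Gata3, Gata4, Dab2, Hand1, Fgf5, Egr1, Mapk3, Dppa5, Tdgf1, Utf1, Zfp281, Cxxc6, L1td1, Rest and Smarcad1. Some genes that the rule picks are not reported here. Clusters were assigned by position and strand within the locus. Alternatives changed the pseudocount, the filter, the trend, the centring, the status, the controls and the cluster assignment. Promoter sequences are from RefSeq (GRCm38.p6).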

Additional observations from a re-analysis of the deposited data

Results flagged for a closer look

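For 7 factors the shFox2-1 value lay above both control values and the shFox2-2 value below both, so the 2 knockdown hairpins stood on opposite sides of the controls. The same was so for 25.6% of expressed genes. This order is by value. By interval, only Klf2 of the 7 was below both controls with shFox2-2, and its shFox2-1 interval overlapped them. The difference of shFox2-1 from shFox2-2, in log2(FPKM + 1), was taken as deposited, with the median gene at 0.087 in shFox2-1 and -0.098 in shFox2-2. It was 1.015 for Tcfcp2l1, 0.972 for Klf4, 0.829 for Nanog and 0.702 for Esrrb. It was 0.639 for Klf2, 0.562 for Klf5 and 0.45 for Sox2. These differences were not tested, because each hairpin has 1 pooled value. After centring, the opposite sides held for 5 of the 7, against 14.3% of genes, and no longer for Nanog and Tcfcp2l1, whose shFox2-2 values were then not below both controls.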

How the results depend on the processing

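No paired analysis was possible because the libraries of a hairpin are pooled in the table and its columns carry no replicate number. With limma, 0 genes passed under the other pseudocount, centring, no trend or any hairpin left out, and 1 passed when testing was limited to a mean of 1 FPKM or more. Leaving out 1 hairpin at a time, where the lone hairpin of a side is taken to vary like the other side, gave log2 differences from -0.067 to 0.76 for Nanog, -0.082 to 0.93 for Tcfcp2l1, -0.29 to 0.41 for Esrrb, -0.53 to 0.11 for Klf2, -0.16 to 0.81 for Klf4, -0.26 to 0.30 for Klf5, -0.27 to 0.18 for Sox2 and -0.13 to 0.57 for its low entry. Without shLuc, Esrrb was at -0.015 and Klf5 at -0.07. Tbx3 stayed between 0.08 and 1.33, and Pou5f1 between -0.25 and -0.01.

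Over all expressed genes, centring gave 419 above with shFox2-1 (687 as deposited), 220 above and 117 below with shFox2-2 (44 and 250), and 8 below with both (15). It gave 703 genes with shFox2-1 above shFox2-2 and 695 below (1637 and 249). A mean of at least 5 FPKM gave 174 below with shFox2-1 (267). An OK status gave 12 genes above with both hairpins (22) and 23 above with shFox2-2, and 0 of the factors in both cases, since Sall4 has a low-data status. Leaving out 1 control gave 33 to 79 genes above with both hairpins and 39 to 73 below. It gave 847 to 1344 above and 377 to 451 below with shFox2-1, 72 to 162 above and 379 to 713 below with shFox2-2, and 1 to 4 factors below with shFox2-2. Of the 52 clusters, 23 were left at 4-fold or more, clusters with no fold formed included, and 34 at the median coverage or more. The level of the interval and the unknown depth limit how far apart 2 values must lie, and the cause of these shifts was not tested.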
